A study of Mus musculus with 6 samples.

Results

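The early growth response (EGR) transcription factors Egr1, Egr2 and Egr3 and the NAB corepressors Nab1 and Nab2 were read by 7 probe sets, chosen as all probe sets of the array that carry 1 of these 5 gene symbols. They were 7 of 22626 probe sets, and their 5 genes were among 12393 genes with a single-symbol probe set. The arrays compared the suprachiasmatic nucleus (SCN), the seat of the circadian clock in the hypothalamus, after a light pulse with the SCN after a sham light pulse, on 3 arrays per group. All mice were adult male C57BL/6 mice, 2 to 4 months old, kept alone in a 14:10 light/dark cycle. The light pulse was 2400 lux for 30 minutes, starting 1 hour after lights off. Sham animals stayed in darkness for the same time, and tissue of both groups was taken 1.5 hours after lights off. Each array held RNA pooled from 3 mice, with 6 sections of 12 μm taken from each mouse by laser capture microscopy, in which stained tissue is lifted out of a section. Linear amplification of 1 ng of total RNA per pool, repeated once, gave the labelled material. One pool was the replicate, so the p-values below measure the spread between these pools only.

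EGR proteins are zinc finger factors that bind GC-rich sites in DNA. Their genes are immediate-early genes, which are transcribed within minutes of a stimulus without new protein synthesis. In neurons they are driven by calcium and ERK signals that act through serum response factor at CArG boxes and through CREB at cAMP response elements (CREs). NAB proteins carry no DNA-binding domain of their own and bind EGR proteins, and they mostly repress EGR target genes together with the NuRD chromatin remodelling complex. In other cells EGR proteins induce Nab2, which makes a negative feedback loop. In the SCN, Egr1 and Egr3 are known as genes that light induces at night.

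The SCN neuron markers were present in both groups. All 10 listed markers, which include Vip, the peptide of the SCN cells that receive retinal input, passed the filter on low signals described below, and 0 of them was called changed. Of all probe sets that passed this filter 0.0677% were called higher and 0% lower. Over the probe sets that passed this filter, arrays correlated at r = 0.893 to 0.935 within groups and 0.886 to 0.934 between groups. Light pulse replicate 3 stood apart in Ttr, a choroid plexus gene, with a signal of 110322.6, against 206.5 and 63 on the other light pulse arrays and 81.1 to 295.6 on the sham light pulse arrays. The other 4 choroid plexus markers lay below the filter. On light pulse replicate 3 Kl, Folr1, Aqp1 and Foxj1 had signals of 72.7, 147.3, 40.3 and 50, each the highest of the light pulse arrays. Foxj1 was higher on sham light pulse replicate 1, at 73.4. Of 6 endothelial markers, Cldn5 and Flt1 passed the filter, with log2 differences of -0.47 and -1.55 that did not pass the test (limma adjusted p = 0.960 for each), and Pecam1, Cdh5, Tek and Tie1 lay below it. The summed signal of the endothelial markers was 910 to 1261 on light pulse arrays and 1243 to 1868 on sham light pulse arrays. Its part in the results below was not tested. In such captured tissue, fewer cells of a type and less RNA per cell cannot be told apart.

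Egr1 and 1 of the 2 Egr2 probe sets were called higher after the light pulse. The other Egr2 probe set was also higher on every light pulse array but was not called, and no call was reached for Egr3, Nab1 or Nab2. A probe set was kept for the main test when its signal of rank 3 over the 6 arrays was at least 118.2, a floor that leaves 45.7% of all probe sets. Of the 7 EGR and NAB probe sets 4 were kept, those of Egr1, both of Egr2 and 1 of Nab1, and the other 3 have their values from a fit of all 22626 probe sets. Among the 4 kept probe sets 2 were called higher (limma, Benjamini-Hochberg adjusted p under 0.05), 1 of Egr1 and 1 of Egr2. In the background 7 kept probe sets, or 0.0677%, were called higher. None of the 4 was called lower, and over all kept probe sets the share called lower was 0%, with 228 lower at an unadjusted p under 0.05. A Cyber-T test written anew here called 1 of the 4 higher and 0 lower. It was not run with the study's software or on the study's filtered set, so its p-values are not those of the study's own test. Both Egr2 probe sets passed the filter only through the light pulse arrays, so the count over the kept probe sets is a description. With no filter, over all 22626 probe sets, the limma adjusted p was 0.000517 for Egr2 1427683_at and 0.0138 for Egr2 1427682_a_at.

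**Figure D1:**
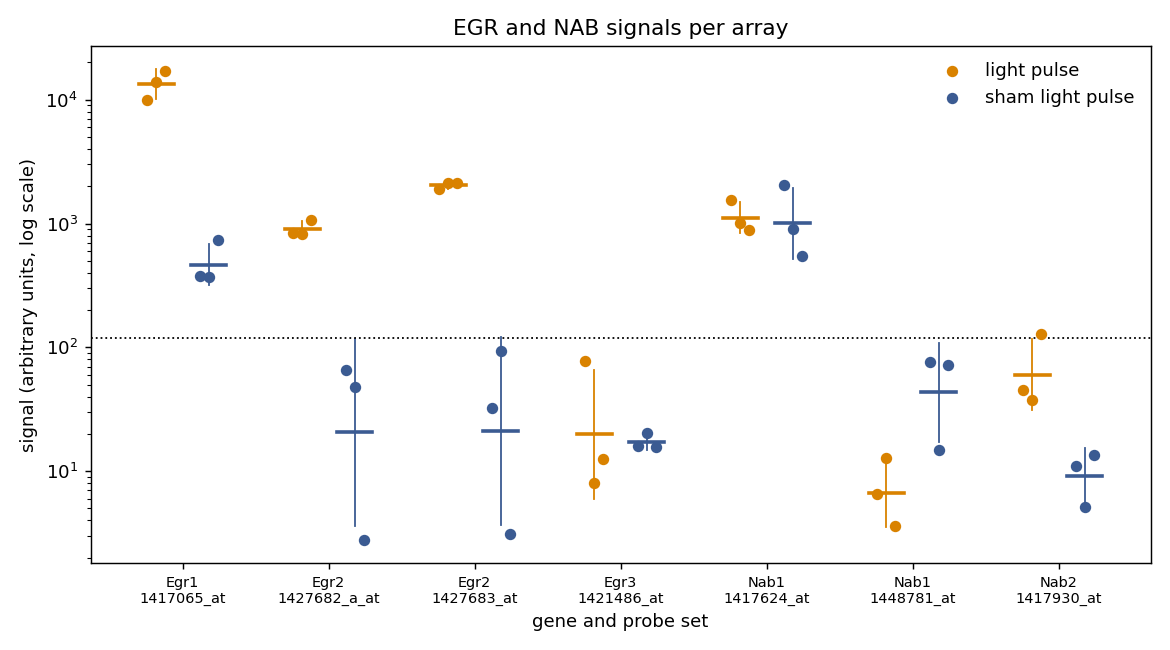
Signal of each EGR and NAB probe set in arbitrary units on a log scale, with 1 point per array, light pulse left of sham light pulse. Wide bars are geometric means, thin bars 1 SD of the log2 signal over 3 arrays, and the dotted line is the floor of 118.2. The light and sham points of Egr1 and of both Egr2 probe sets are far apart, those of Egr3 and of Nab1 1417624_at overlap, and the Nab2 and Nab1 1448781_at points lie almost wholly below the floor.

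Egr1 encodes the family member best known from neuronal activity, also called Zif268 or NGFI-A, and lies on chromosome 18 from 34861207 to 34864956 (GRCm38.p6). Its probe set 1417065_at had signals of 9942.2, 13885.5 and 17167.6 on the light pulse arrays, against 376.2, 369.4 and 732.7 on the sham light pulse arrays. The groups did not overlap, and the lowest light pulse array stood far above the highest sham array. The mean signal was 13665 ± 3618 after the light pulse and 493 ± 208 after the sham light pulse (SD, n = 3 each). All 6 arrays were above the floor, so both ends of this change were read well inside the range of kept probe sets. The log2 fold change was 4.84 with an SE of 0.32, a 28.6-fold higher geometric mean signal (95% confidence interval 17.8 to 45.8), with a limma adjusted p of 3.35e-06. It had rank 4 by fold change and rank 2 by p among the kept probe sets. The call held in all 15 alternative settings, with log2 fold changes from 4.65 to 5.16. Without light pulse replicate 3, the array of high Ttr, the log2 fold change was 4.65.

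Egr2, also called Krox20, is needed for hindbrain patterning and for myelination by Schwann cells. It lies on chromosome 10 from 67534469 to 67542188, and 1712 bases of it overlap the lncRNA gene Gm32255. Its probe set 1427683_at had signals of 1890.4, 2123 and 2113.8 on the light pulse arrays, against 32.2, 94.3 and 3.1 on the sham light pulse arrays. The light pulse arrays lay close together and the sham arrays were widely scattered at low signals, with an SD of the log2 signal of 0.09 against 2.52. The log2 fold change was 6.59 (SE 0.88, limma adjusted p = 0.00597), rank 1 of the kept probe sets. As a fold of geometric means this was 96.6, with a 95% confidence interval of 26.1 to 358. All 3 sham signals were below the floor, so the size of the fold rests on low signals. The ratio of arithmetic means was 47.3, and with an offset of 50 added to every signal the fold was 24.4. With signals below the floor raised to it, an alternative chosen after seeing the data, the fold was 17.3 with a limma adjusted p of 8.87e-06. Without sham light pulse replicate 3 the fold was 37.0, and without sham light pulse replicate 2 it was 204. Without light pulse replicate 3 the limma adjusted p was 0.0402. The call was lost in 4 of 15 alternatives, namely limma without an intensity trend (adjusted p = 0.428), the Cyber-T test as rewritten here (0.125), and limma without light pulse replicate 1 (0.0827) or 2 (0.0629). In the study's own Cyber-T test, on its own filtered set, Egr1 and Egr2 both passed a Bonferroni correction. The study also reports that both genes rose after the light pulse by qPCR.

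The other Egr2 probe set, 1427682_a_at, had signals of 846.2, 829.5 and 1072.9 on the light pulse arrays, against 65.4, 47.8 and 2.8 on the sham light pulse arrays. The pattern over arrays was like that of 1427683_at, with sham replicate 3 lowest on both. Its log2 fold change of 5.46 (SE 0.93) was a fold of 44.1, with a 95% confidence interval of 3.46 to 7.47 on the log2 scale. It had rank 2 by fold change, yet the limma adjusted p of 0.0606 did not pass the threshold. It passed in 7 of 15 alternatives, among them no filter (adjusted p = 0.0138), an offset of 50 (0.000101) and the omission of any 1 sham light pulse array (0.000218 to 0.0282). Over all 15 alternatives the adjusted p ran from 0.000101 to 0.683. With low signals raised to the floor the fold was 7.70.

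**Figure D2:**
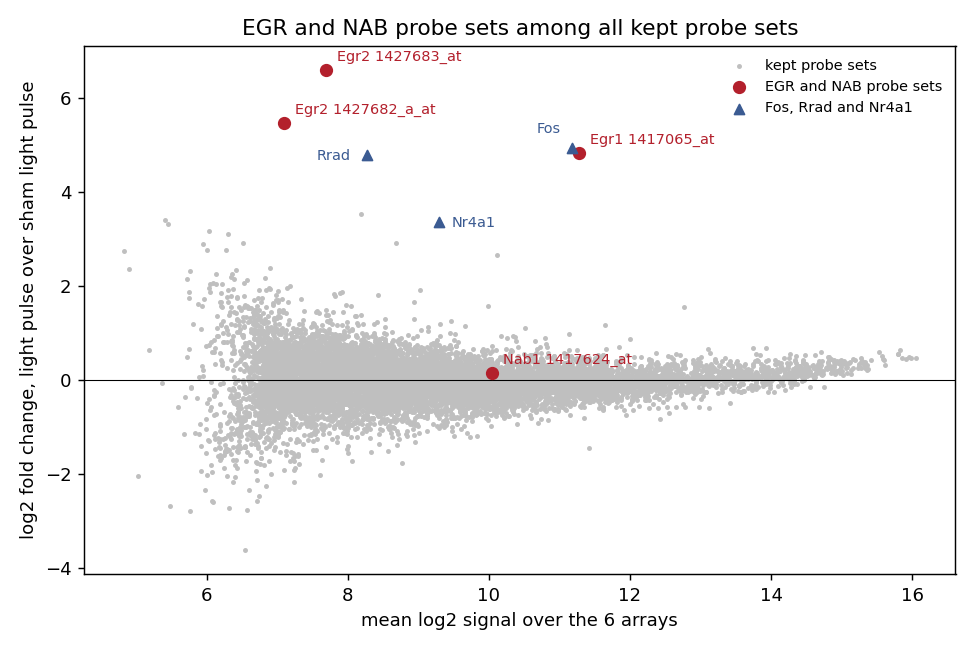
Log2 fold change of light pulse over sham light pulse against the mean log2 signal over the 6 arrays, with 1 grey point for each kept probe set. Red points are the 4 kept EGR and NAB probe sets and blue triangles are Fos, Rrad and Nr4a1. Egr1 stands beside Fos at 4.84 and 4.94, both Egr2 probe sets are the highest points of the plot, and Nab1 lies in the grey cloud at 0.15.

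Because 1 Egr2 probe set was called and the promoter table held Egr2, and because CArG boxes and CREs are the sites through which EGR genes are known to respond, the promoter letters of Egr2 are shown with these sites in capitals. The RefSeq promoter table (GRCm38.p6) held 5 windows for Egr2, each from 250 bases before to 50 bases after a transcript start. The 150 bases before the start at 67537869 are chr10:67537719-67537868 on the plus strand. The capitals mark, in order, a CRE core, a CArG box and a CRE core on the other strand.
Egr2: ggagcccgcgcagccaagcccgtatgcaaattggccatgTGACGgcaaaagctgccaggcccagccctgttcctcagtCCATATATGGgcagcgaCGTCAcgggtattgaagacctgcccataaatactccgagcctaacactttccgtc
Counted back from the start, the CRE cores lie at -111 to -107 and at -55 to -51, and the CArG box at -72 to -63. The same matches fell in the windows of the neighbouring starts at 67537870 and 67537930. The window at 67537566 held another CArG box at -72 to -63, and the window at 67535499 held none of the motifs. Both strands were searched, for the CArG box by its name, for the CRE core TGACG, for the full CRE TGACGTCA, for the EGR site GCGNGGGCG and for the element TATAAA. The full CRE contains a core on each strand, so these overlap where both occur. Of 32851 windows of all genes 1.63% held a CArG box, 20.8% a CRE core, 1.79% a full CRE, 5.55% an EGR site and 13.6% TATAAA. A match is a description of these letters and not a measured binding site. In the Egr2 windows the full CRE, the EGR site and TATAAA had no match. TATAAA was searched as exact letters, so shorter or variant TATA boxes were not covered. The study reports a conserved CRE and a TATA box for Egr2, from a longer stretch before the start codon and with other patterns. The lack of a match here therefore does not bear on those elements.

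Egr3, which shares its binding site with Egr1 and in muscle is needed for muscle spindles, had signals below the floor on all 6 arrays. It lies on chromosome 14 from 70077317 to 70082613. Its probe set 1421486_at had signals of 77.8, 8 and 12.6 on the light pulse arrays, against 16, 20.4 and 15.7 on the sham light pulse arrays. The groups overlapped, and 0 of the 6 arrays reached the floor. Light pulse replicate 1 was the highest array and light pulse replicate 2 the lowest. The log2 fold change was 0.20 with an SE of 1.23 (limma adjusted p = 0.989). Its 95% confidence interval of -2.37 to 2.78 leaves room for a large change in either direction. Without light pulse replicate 1 the log2 value was -0.78. The study reports that Egr3 rose significantly after the light pulse by qPCR, although its array analysis had not identified it.

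Nab1, a corepressor of EGR proteins, was read by a probe set above the floor on all arrays and by another below it on all arrays. The gene lies on chromosome 1 from 52455849 to 52500712, on the minus strand. Probe set 1417624_at had signals of 1537.3, 1008 and 890.3 on the light pulse arrays, against 2035.7, 903.3 and 546.7 on the sham light pulse arrays. The light pulse arrays lay inside the range of the sham arrays, and all 6 were above the floor. The log2 fold change was 0.15 with an SE of 0.42 (limma adjusted p = 0.982), and its 95% confidence interval ran from -0.75 to 1.05. The sign was not stable, with log2 values of -0.08 without light pulse replicate 1 and -0.28 without sham light pulse replicate 3. The highest value of the 6 omissions was 0.66, without sham light pulse replicate 1.

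The other Nab1 probe set, 1448781_at, had signals of 6.5, 12.9 and 3.6 on the light pulse arrays, against 75.8, 14.9 and 71.6 on the sham light pulse arrays. All light pulse arrays lay below all sham arrays, but 0 of the 6 arrays reached the floor. The log2 difference was -2.69 with an SE of 1.22, and the unadjusted p of 0.0404 became 0.963 after limma's adjustment over all probe sets. With an offset of 50 the log2 difference shrank to -0.79. Within arrays, the log2 ratio of 1417624_at to 1448781_at was higher after the light pulse by 2.84 (SE 1.03, exact permutation p = 0.1, the smallest this design allows). With an offset of 50 this difference was 0.93, since the signals of 1448781_at lay below the floor.

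The Nab1 promoter is shown because EGR sites in a corepressor gene bear on the feedback between the families. The window of the start at 52500448 held 3 EGR sites, where 5.55% of all windows held any. The 150 bases before that start are chr1:52500449-52500598, read on the minus strand, with the EGR sites and a CRE core in capitals.
Nab1: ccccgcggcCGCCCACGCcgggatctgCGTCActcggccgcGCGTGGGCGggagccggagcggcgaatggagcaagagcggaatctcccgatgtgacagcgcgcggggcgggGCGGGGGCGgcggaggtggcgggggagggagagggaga
The EGR sites lie at -141 to -133 on the opposite strand and at -109 to -101 and -38 to -30 on the printed strand. The CRE core lies at -123 to -119 on the opposite strand, between the outer EGR sites. No CArG box, full CRE or TATAAA was found in this window. Nab1 was not called on either of its probe sets.

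Nab2, the corepressor that EGR proteins induce in other cells, had low signals that were higher on every light pulse array. The gene lies on chromosome 10 from 127660918 to 127666703. Its probe set 1417930_at had signals of 45.1, 37.6 and 129.4 on the light pulse arrays, against 11.1, 5.1 and 13.5 on the sham light pulse arrays. The groups did not overlap, and only light pulse replicate 3 reached the floor. The log2 fold change was 2.72 with an SE of 1.16, a fold of 6.60 with a 95% confidence interval of 1.22 to 35.6. The unadjusted p of 0.0302 became 0.963 after limma's adjustment over all probe sets, so the difference did not pass the test. It had rank 298 by fold change of 22626 probe sets. An offset of 50 brought the fold to 1.91, and without light pulse replicate 3 the log2 fold change was 2.17. Nab2 was called in 0 of 12 alternatives. The 3′ ends of Nab2 and Stat6 overlap by 70 bases. The Stat6 probe sets, also below the floor, had log2 differences of -1.30 and -1.70. The RefSeq window of Nab2 held none of the 5 motifs searched.

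In 4 of the 7 probe sets the lowest light pulse array exceeded the highest sham array, namely Egr1, both of Egr2 and Nab2, where 6.68% of all 22626 probe sets did. One, Nab1 1448781_at, had all light pulse arrays below all sham arrays, where 3.64% of all probe sets did. The log2 fold changes of all probe sets ran from -1.34 at the 5th percentile to 1.88 at the 95th, and those of the kept probe sets from -0.76 to 0.76. Egr1, both Egr2 probe sets and Nab2 lay above the higher of these percentiles for all probe sets, and Nab1 1448781_at lay below the lower one. The Egr3 probe set and Nab1 1417624_at lay between them.

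**Figure D3:**
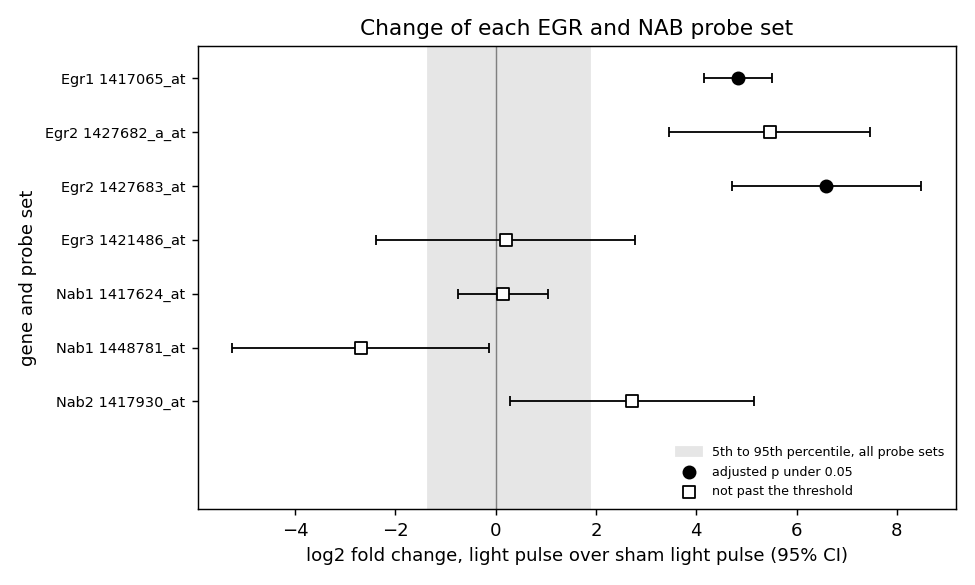
Log2 fold change of light pulse over sham light pulse for the 7 EGR and NAB probe sets, with 95% confidence intervals from limma (n = 3 arrays per group). Filled circles passed an adjusted p of 0.05, open squares did not, and the grey band spans the 5th to 95th percentile of all probe sets (-1.34 to 1.88). The intervals of Egr1 and both Egr2 probe sets lie wholly to the right of the band, and those of Egr3, Nab1 and Nab2 reach into it.

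To ask whether the genes changed unequally, log2 ratios between probe sets were taken within each array and compared between groups, in 7 pairs, of which the pairs of Fos and Nr4a1 with Egr1 were added after seeing the data. With 3 arrays against 3 an exact two-sided permutation test cannot give a p below 0.1, so none of these pairs could pass a threshold of 0.05. The ratio of Nab1 1417624_at to Egr1 was lower after the light pulse by a log2 of -4.68 (SE 0.95, exact p = 0.1, 0.175 adjusted over the 7 pairs), and the groups did not overlap. The ratio of Nab2 to Egr1 differed by -2.11 (SE 0.53, exact p = 0.1, adjusted 0.175). Its light pulse values of -8.53 to -7.05 did not overlap the sham values of -6.18 to -5.08. Since 5 of the 6 Nab2 signals lay below the floor, the size of this difference was not well measured, and with an offset of 50 it was -3.75.

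The change of Egr2 could not be separated from that of Egr1. The log2 ratio of Egr2 1427683_at to Egr1 differed by 1.76 with an SE of 1.78 (exact p = 0.5, adjusted 0.583). Its sham values ran from -7.88 to -1.97, against -3.02 to -2.39 on the light pulse arrays. Leaving out single arrays moved the difference between 0.05 and 3.01, and it turned to -0.08 with an offset of 50 and to -0.73 with low signals raised to the floor. The order of Egr2 and Egr1 by fold change was therefore not settled by these arrays. The Egr2 probe sets differed from each other by 1.13 (SE 0.59, exact p = 0.2, adjusted 0.28).

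**Figure D4:**
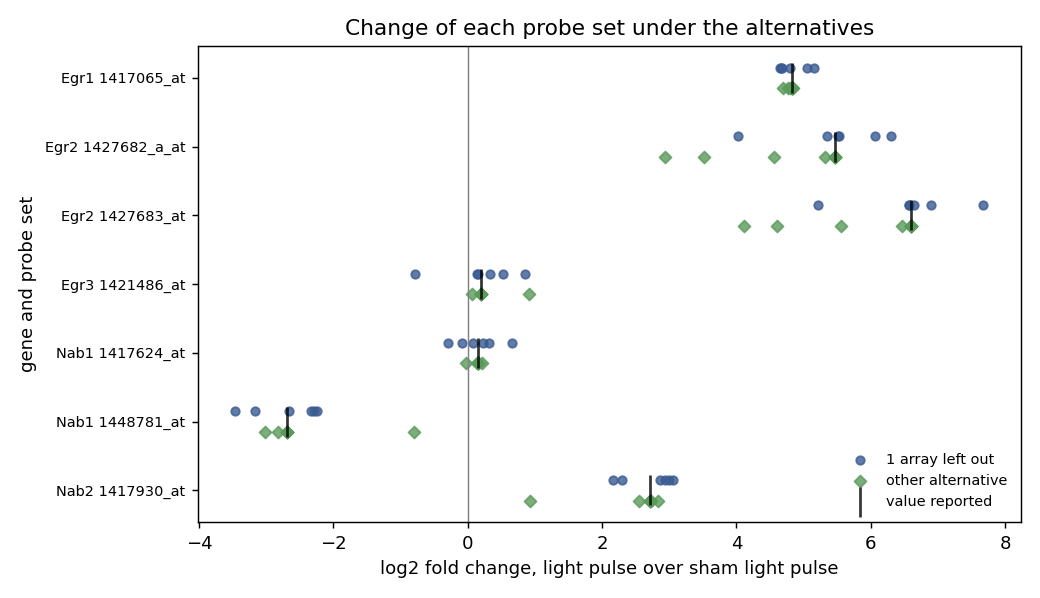
Log2 fold change of light pulse over sham light pulse for each EGR and NAB probe set under the alternatives. The vertical tick is the value reported, blue circles are fits with 1 array left out and green diamonds are the other settings. Egr1 stays between 4.65 and 5.16, Egr2 1427683_at spreads from 4.11 to 7.67, and Egr3 and Nab1 1417624_at have values on both sides of 0.

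Genes with the pattern most like Egr1 were found by the root mean square difference of log2 signals over the 6 arrays, each probe set centred on its sham mean, among 9501 other kept probe sets with 1 symbol. The most similar was Rrad, a Ras-related GTPase gene, at 0.467. Fos, the AP-1 subunit used as a marker of neuronal activity, followed at 0.607 and Nr4a1, an orphan nuclear receptor of the immediate-early class, at 1.11. For Egr2 1427683_at the most similar were Fos at 1.92, Rrad at 2.08 and Egr1 at 2.17. With profiles centred on the sham mean, this measure depends largely on the size of the fold change. Genes of large fold therefore come first. The Egr2 distances also hold the scatter of its sham signals below the floor, from -2.77 to 2.16, and do not show a close likeness. Egr2 1427683_at and Rrad passed the filter only through the light pulse arrays. Fos had signals of 14253.5, 10399.9 and 14457.3 on the light pulse arrays, against 667.7, 297.6 and 370 on the sham light pulse arrays. Its log2 ratio to Egr1 differed between groups by 0.11 (SE 0.60, exact permutation p = 0.9), and this value changed sign without light pulse replicate 1 or sham light pulse replicate 3. The log2 ratio of Nr4a1 to Egr1 differed by -1.47 (SE 0.40, exact permutation p = 0.1, adjusted 0.175), which could not pass the threshold in this design.

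The genes around the EGR family were counted over lists. Of all kept probe sets 0.0677% were called higher and 0% lower, so a count of 0 in so short a list says little. Of 18 listed symbols for inputs to the EGR promoters, 11 were measured and 7 kept, and 0 was called in either direction. Their median log2 fold change was 0.06, against 0.0011 over all kept probe sets. The inputs of highest signal were Mapk14, the p38 kinase, at -0.17 (SE 0.27) and Map2k1, the kinase that activates ERK, at 0.01 (SE 0.28). Srf, serum response factor itself, was at 0.56 (SE 0.29, limma adjusted p = 0.960). Of the 13 NuRD subunits through which NAB proteins act, 12 were measured and 9 kept, with 0 called and a median of 0.08. The NuRD subunits of highest signal were the histone-binding proteins Rbbp7 at 0.26 (SE 0.21) and Rbbp4 at 0.43 (SE 0.20). Of 4 relatives that bind GC-rich sites, only Sp1 was kept, at -1.21 (SE 0.57, limma adjusted p = 0.960). Egr4, the remaining EGR gene, had signals of 17.7, 67.9 and 37.7 on the light pulse arrays, against 7.1, 28.7 and 36.2 on the sham light pulse arrays, all below the floor.

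Of 20 genes known as EGR targets, 18 were measured and 8 kept, and 1 was called higher and 0 lower, with a median of 0.20. Over all kept probe sets the shares called were 0.0677% higher and 0% lower. The called gene was Nr4a1, itself an immediate-early gene, with signals of 1999, 2453 and 1645.7 on the light pulse arrays, against 210.5, 141.8 and 247 on the sham light pulse arrays. Its log2 fold change was 3.37 (SE 0.32, limma adjusted p = 0.000166). The other 10 measured targets lay below the filter. Among them Fgf2, Arc and Cd44 had every light pulse array above every sham array, where 6.68% of all 22626 probe sets did. Their log2 differences were 4.63, 2.98 and 1.85 (limma adjusted p = 0.852, 0.963 and 0.963). Ngfr and Icam1 were lower, at -1.20 and -0.61. The size of each of these differences rests on low signals. Of 8 myelin genes that Egr2 drives in Schwann cells, 5 were measured and 4 kept, with 0 called and a median of 0.06. Mbp and Cnp, the myelin genes of highest signal, were at 0.28 (SE 0.24) and 0.14 (SE 0.33).

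Several other immediate-early genes rose with Egr1 and Egr2. Of 28 listed genes 26 were measured and 15 kept, and 5 were called higher and 0 lower, where 0.0677% of all kept probe sets were called higher. These were Fos at a log2 fold change of 4.94, Rrad at 4.79, Nr4a1 at 3.37, Dusp1, a phosphatase that switches off MAP kinases, at 2.66, and the kinase gene Pim3 at 1.54. Rrad passed the filter only through the light pulse arrays. Its sham signals of 87.8, 37.1 and 62.1 lay below the floor, so its fold rests on low signals and counts that include it are a description. All 15 kept genes had a log2 fold change above 0, where 50.1% of all kept probe sets did, and their median was 1.54. In 11 of the 15 the lowest light pulse array exceeded the highest sham array, where 5.62% of all kept probe sets did. Most of the kept genes, with every called one, had been found by the study on these same arrays. Per1 was the only gene with non-overlapping groups that had not. The list was chosen with those results known, so these shares were largely fixed in advance. They are a description, and the list is not independent evidence of direction. The kept genes from outside those results were Ier2, Per1, Ier3, Ier5 and Klf6. Their log2 fold changes were 1.23, 0.86, 0.50, 0.34 and 0.22, and none was called.

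**Figure D5:**
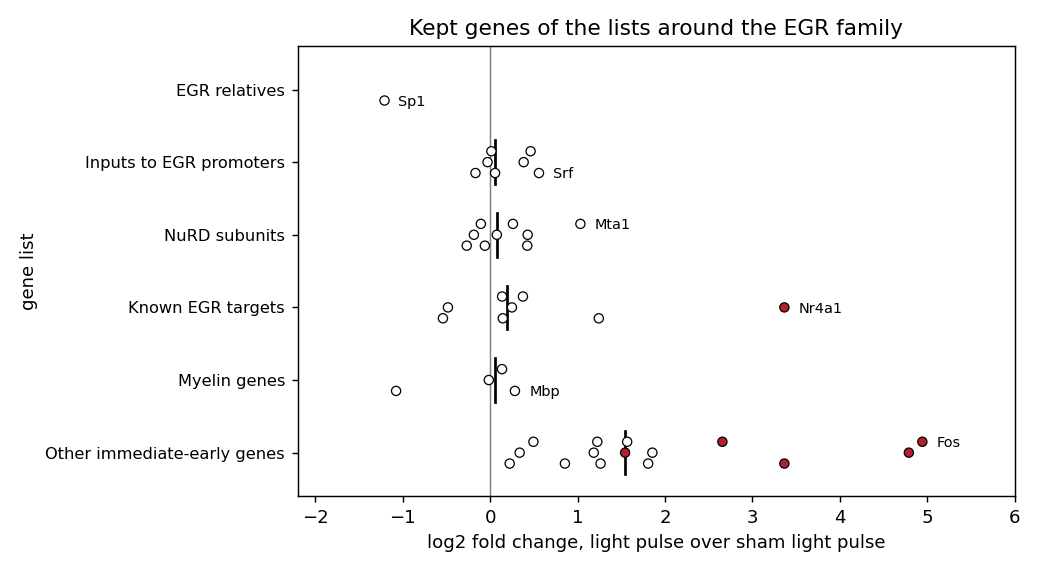
Log2 fold change of light pulse over sham light pulse for the kept genes of 6 lists, with 1 circle per gene. Filled circles passed a limma adjusted p of 0.05, vertical ticks are list medians, and the gene with the highest value is named. The other immediate-early genes all lie above 0 with a median of 1.54, while the inputs, NuRD subunits, EGR targets and myelin genes centre between 0.06 and 0.20, with Nr4a1 alone past the test among them.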

How the data were processed

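The authors deposited 1 signal intensity per probe set of the Affymetrix Mouse 430A 2.0 arrays, calculated with MAS5, which the submitters' notes name with no version, and scaled the arrays. The mean signal with the outermost 2% trimmed was 492.3 to 494.8 on light pulse arrays and 494.6 to 495.6 on sham light pulse arrays. The study filtered on present calls, which were not used here. As many probe sets as the study kept, or 45.7% of the 22626, were taken instead by the rank 3 signal over the 6 arrays.

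The log2 of the signal, with no offset, was compared with limma 3.58.1 in R 4.3.3 (lmFit and eBayes, prior variance trended on intensity, Benjamini-Hochberg adjustment, two-sided, threshold 0.05). Cyber-T was rewritten with a window of 101 and a prior weight of 10; the study's software was not run, and p-values of the rewrite need not match its own. Motifs were searched in RefSeq promoter windows with Python 3.11.15, and windows were found for 3 of the 5 genes. Symbols came from the platform annotation, in which 20380 probe sets had 1 symbol, 691 several and 1555 none.

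The genes and lists were chosen with earlier results of these data known. All probe sets of the 5 genes were described. Of each list the called genes, or else the 2 of highest mean log2 signal, were named. Srf, Egr4, Stat6, Fgf2, Arc, Cd44, Ngfr and Icam1 were added after their values were seen. A gene stood at its probe set of highest mean log2 signal. Marker lists covered SCN neurons, astrocytes, oligodendrocytes, endothelial cells, microglia, choroid plexus and neighbouring neurons. In these lists 0 genes were called, where 0.0677% of all kept probe sets were called higher and 0% lower. The medians of kept genes for astrocytes, oligodendrocytes and microglia were 0.12, 0.05 and -0.02. Of 8 markers of neighbouring neurons 2 were kept, Oxt at a log2 difference of -0.0043 and Pomc at -1.09.

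Alternatives were an offset of 50 before the log2, no filter, a stricter one of 5000 probe sets, scaling by quantiles or by the 75th percentile, no intensity trend, Cyber-T, the replicate number as a block, ratios of arithmetic means, each array left out, and signals raised to the floor. In a test on simulated kept probe sets, with 50 per size altered, limma found 38% of 2-fold, 94% of 4-fold and 100% of 8-fold changes and made 8 false calls. These shares do not carry over to probe sets with scattered low signals. Egr2 1427682_a_at, at a fold of 44.1, had a limma adjusted p of 0.0606. The number of arrays, 3 per group, limits the precision. The labels describe an animal and the protocol a pool of 3 mice, which is used here. The qPCR values were not analysed here.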

Additional observations from a re-analysis of the deposited data

How the results depend on the processing

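Of the 7 probe sets, Egr1 was called in all 15 alternatives, with limma or Cyber-T adjusted p from 2.18e-09 to 0.00580. The count of called EGR and NAB probe sets was 2, and it was 1 without an intensity trend and 1 with the rewritten Cyber-T, and 1 to 3 with single arrays left out. Without light pulse replicate 1 or 2 it was 1, and without any 1 sham light pulse array it was 3. The count over all kept probe sets was 7 higher, 4 without an intensity trend and 5 to 8 with single arrays left out, and 0 lower in every alternative. With single arrays left out, log2 values ran from -0.78 (without light pulse replicate 1) to 0.86 for Egr3 and from -0.28 (without sham light pulse replicate 3) to 0.66 for Nab1 1417624_at, which was also at -0.081 without light pulse replicate 1. The change of the Egr2 1427683_at to Egr1 log2 ratio turned to -0.081 with an offset of 50 and to -0.73 with signals raised to the floor. For the Fos to Egr1 log2 ratio the range was -0.31 (without sham light pulse replicate 3) to 0.60, with -0.18 without light pulse replicate 1. For probe sets that were not kept, no value was computed with signals raised to the floor.

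The replicate numbers did not pair the arrays, since same-numbered arrays deviated together at r = 0.096, -0.192 and -0.129, and 2 of 6 arrays correlated best with their own number. With the replicate block 6 probe sets were called in place of 7, of which 2 were EGR probe sets, with limma adjusted p of 1.22e-05 for Egr1, 0.00446 for Egr2 1427683_at and 0.0643 for Egr2 1427682_a_at. All values of Egr3 and Nab1 1448781_at, and the sham values of Egr2, lay below the floor of 118.2. Of the Nab2 values only that of light pulse replicate 3 reached it. Below the floor, signal over background limits every fold.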
